A study of Homo sapiens with 18 samples.

Results

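The loss of Ikaros (IKZF1) was compared between the human multiple myeloma cell lines MM1S and OPM2, and the quantity described here is the difference between the 2 knockout effects. The members are 8 libraries of the 18 in the series, chosen by their labels: 2 of MM1S with empty vector, 2 of MM1S with an inducible CRISPR-Cas9 knockout of IKZF1, 2 of OPM2 with empty vector and 2 of OPM2 with an inducible knockout of IKZF1. Per the labels' protocol, doxycycline at 1 µg/mL induced the guide RNA, in the empty vector controls as in the knockouts, so all 8 share the drug. They were cultured for 72 h, live cells were sorted by light scatter, and RNA was extracted and sequenced. OPM2 cells labelled NT with the agent given as control (2 libraries), taken here as untreated, served as a second control. No doxycycline is given for them, and their titles name no vector. A difference read with them therefore also holds doxycycline and vector, in the OPM2 arm alone. In the count headers, the tags of the 2 knockout libraries carry different letters in OPM2 and the same letter in MM1S. Whether the 2 knockout libraries of a line are separate clones, guides or cultures is not stated. They are called a and b, n is 2 in every group, and p-values measure the spread between such libraries, which may be technical.

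Ikaros is a zinc finger transcription factor of lymphoid cells that both represses and activates genes and works with its relative Aiolos (IKZF3). In myeloma it sustains IRF4 and MYC, and lenalidomide acts by directing both proteins to the cereblon ubiquitin ligase. MM1S carries a translocation that drives MAF and OPM2 one that drives FGFR3 and NSD2, so the lines stand for different genetic classes of the disease. The series title names CD38, the surface enzyme bound by daratumumab, and the question put here was which genes the loss of Ikaros moved differently in the 2 lines.

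Libraries held 11.8 to 24.19 M counts, and 14522 genes were tested. One library stood apart: OPM2 empty vector replicate 1 differed more than 2-fold from its partner at 1113 genes (between 22 and 411 in each of the remaining groups), and its scaling factor was 0.86. The counts of called genes and many results are therefore also read without that library or with untreated OPM2 cells in place of the empty vector. A result given without such a reading should not be taken to hold under both. FGFR3 averaged 2174 CPM (counts scaled to the library size) in OPM2 empty vector cells and 0.627 CPM in MM1S and MAF 64.5 and 503 CPM, the pattern known for these lines. The plasma cell markers SDC1, TNFRSF17, SLAMF7, IRF4, PRDM1, XBP1 and JCHAIN averaged from 248 to 6958 CPM in the 4 groups. CD38, a further plasma cell marker, lay below this range in all 4 groups, and its values are given in the next paragraph. Of 16 myeloid markers, MPO, ELANE, CEBPE and MNDA had 0 counts in all 8 libraries, and the summed level of the list was 53.5 to 54.3 CPM in MM1S empty vector, 83.9 to 88.8 in MM1S knockout, 6.17 to 7.08 in OPM2 empty vector and 35.6 to 42.2 CPM in OPM2 knockout. Over 1 CPM in at least 1 library were 7 of the myeloid markers, S100A9, CD163, ITGAM, CD68, CEBPA, CD33 and CD14. CD3D and GZMB, of the 17 T and NK cell markers, also had 0 counts in all 8. CD2, CD3E, CD7 and GNLY of that list passed 1 CPM in at least 1 library, and its summed level ran from 0.821 to 5.92 CPM. In these bulk samples, fewer cells of a kind and less RNA per cell cannot be told apart.

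The transcript of the targeted gene was called higher, not lower, in the libraries labelled knockout of both lines, which goes against what a loss of transcript would show. The labels are therefore not checked by it, and knockout here and below means the group so labelled. IKZF1 stood at 179 and 185 CPM in empty vector cells and 312 and 333 CPM after knockout in MM1S and at 94.3 and 188 CPM in empty vector cells and 213 and 225 CPM after knockout in OPM2. Its effect was 0.83 ± 0.23 in MM1S (adjusted p = 0.016 by edgeR) and 0.63 ± 0.23 in OPM2 (adjusted p = 0.048). In OPM2 it was not called without empty vector 1 (0.25, adjusted p = 0.31) or with untreated cells, at 212 and 225 CPM, as control. The difference between the effects was 0.20 ± 0.33 (SE; adjusted p = 0.72), and reads of an edited transcript can still be counted. IKZF3 was also called higher in both lines, at 0.68 ± 0.17 in MM1S and 0.76 ± 0.17 in OPM2, with a difference of -0.07 ± 0.24 (SE; adjusted p = 0.89). CD38 stood at 10.8 and 11.2 CPM in empty vector cells and 23.4 and 20.9 CPM after knockout in MM1S and at 15.6 and 17.4 CPM in empty vector cells and 44.5 and 48.8 CPM after knockout in OPM2, so knockout and control libraries did not overlap in either line. Its rise was 1.01 ± 0.22 in MM1S and 1.495 ± 0.21 in OPM2 on the log2 scale. The difference was -0.48 ± 0.31 (SE; adjusted p = 0.28) by edgeR's quasi-likelihood test and was not called, but with untreated OPM2 cells as control it was -0.97 and was called (adjusted p = 0.047). Both untreated libraries had less CD38 than both empty vector libraries, at 10.9 and 12.7 CPM.

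A difference between the lines was called (Benjamini-Hochberg adjusted p below 0.05, edgeR) for 3015 of 14522 genes, or 20.8%. It was higher in MM1S, meaning a more positive effect there, for 1714 genes (11.8%) and lower for 1301 (8.96%). Within the lines, 4106 genes (28.3%) were called in MM1S (15.6% of the tested genes rose and 12.7% fell) and 5276 (36.3%) in OPM2 (16.2% rose and 20.1% fell). The median difference over all genes was 0.055 on the log2 scale. Of the 3015 genes, 1152 (38.2%) were called in MM1S alone, 1235 (41%) in OPM2 alone, 131 (4.34%) in the same direction in both, 184 (6.1%) in neither, and 313 (10.4%) in opposite directions. These classes hold only genes called in the difference, a choice that favours opposite effects and passes over like ones. They therefore do not compare opposite with shared movement over all genes. Among genes called in MM1S alone, 117 of 1152 were under 1 CPM in both OPM2 groups, as were 36 of the 1235 called in OPM2 alone in MM1S. Across the 11624 genes whose mean log2 CPM reached 1, the MM1S and OPM2 effects had a Pearson's r of 0.179 and a Spearman rank correlation of 0.228, a description over genes, which are not independent replicates.

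Both the genes called and their number depended on the OPM2 control. Without OPM2 empty vector replicate 1, 3057 of the genes tested (20.6%) were called, 10.3% higher and 10.2% lower, and 2460 of the 3015 remained called in the same direction. With untreated cells as control, 2290 (15.8%) were called, 8.67% higher and 7.1% lower. Called in the same direction under all 3 choices were 1191 genes, 641 higher and 550 lower. Those included 232 of the 313 genes with opposite directions and 697 of the 1152 called in MM1S alone, but 142 of the 1235 called in OPM2 alone. These counts concern the difference, not the calls within the lines. Without OPM2 empty vector 1, both lines were still called in opposite directions for 60 of the 163 genes that rose in MM1S and fell in OPM2, and for 97 of the 150 that fell in MM1S and rose in OPM2. Leaving out other libraries moved the count too, to 1590 without MM1S empty vector 1, 1364 without MM1S empty vector 2, 1701 and 1747 without MM1S knockout a and b, 1871 and 1990 without OPM2 knockout a and b, and 7000 without OPM2 empty vector 2. In the authors' deposited table of log2 FPKM values, 3010 of the 3015 differences (99.8%) had the same sign, from the same libraries.

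**Figure D1:**
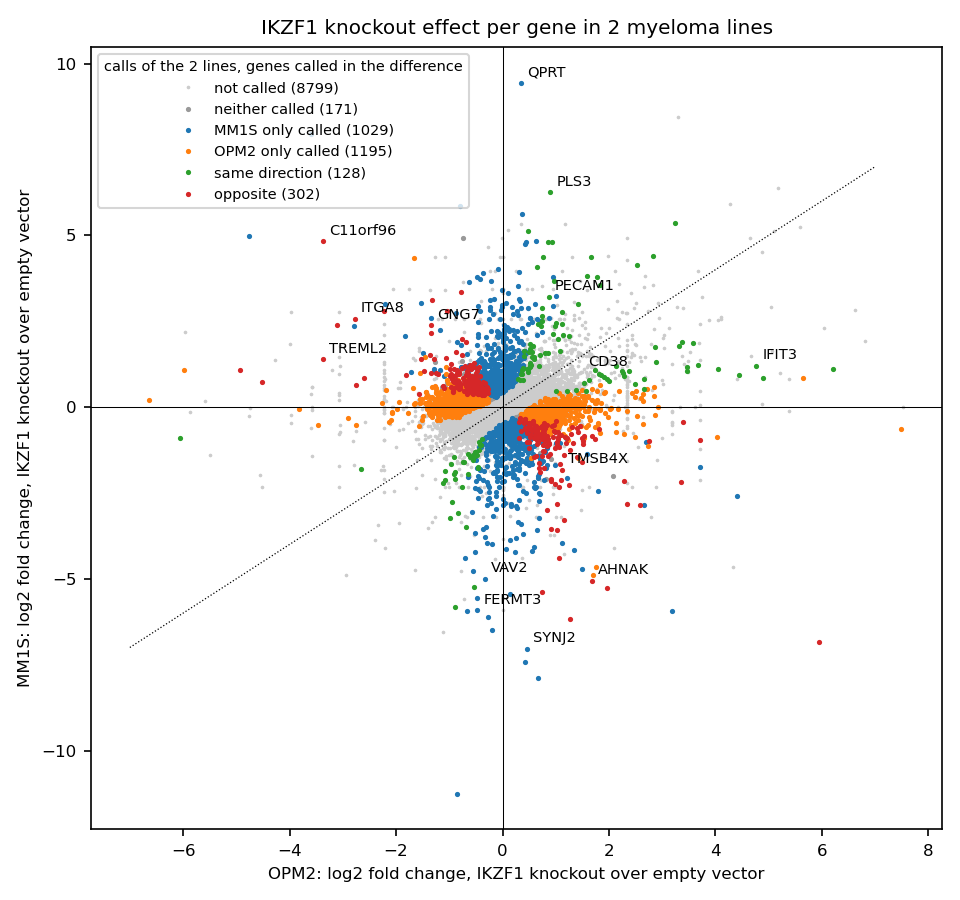
Each point is a gene whose mean log2 CPM reached 1, placed by its log2 fold change after IKZF1 knockout in OPM2 (x axis) and MM1S (y axis) and coloured by the calls in the 2 lines, with the number of genes plotted in brackets. The dotted line marks equal effects, and points far from it, such as QPRT and FERMT3, moved in MM1S and were not called in OPM2 (0.35 and -0.48). Fitted values of genes with few counts in a group depend on the prior count.

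Genes that moved in opposite directions included regulators of signalling and adhesion that rose in MM1S and fell in OPM2. GNG7, a gamma subunit of heterotrimeric G proteins, stood at 5.58 and 6.53 CPM in empty vector cells and 31.8 and 31.2 CPM after knockout in MM1S and at 143 and 97.6 CPM in empty vector cells and 53.7 and 40.4 CPM after knockout in OPM2. The groups did not overlap in either line, as the selection of this gene required. The difference of the log2 effects was 3.73 ± 0.27 (SE; adjusted p = 1.4e-06). TREML2, an immune receptor of the TREM family, stood at 45.2 and 45.6 CPM in empty vector cells and 116 and 122 CPM after knockout in MM1S and at 2.65 and 2.05 CPM in empty vector cells and 0.195 and 0.235 CPM after knockout in OPM2. Its rise in MM1S was 1.39 ± 0.16 and its fall in OPM2 -3.37 ± 0.38, giving a difference of 4.76 ± 0.40 (SE; adjusted p = 4.3e-06). ITGA8, an integrin alpha chain, went from 55.3 and 56.9 CPM to 323 and 345 CPM in MM1S and from 1.18 and 1.42 CPM to 0.195 and 0.177 CPM in OPM2. The difference was 5.35 ± 0.67 (SE; adjusted p = 0.00014), and untreated OPM2 cells held 4 and 4.51 CPM, above the empty vector cells.

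EVL, an Ena/VASP protein that promotes actin filament growth, stood at 1.47 and 1.91 CPM in empty vector cells and 15.8 and 18.8 CPM after knockout in MM1S and at 94.05 and 58.01 CPM in empty vector cells and 37.9 and 50.9 CPM after knockout in OPM2. Its difference was 4.13 ± 0.37 (SE; adjusted p = 7.9e-06) with all libraries, 3.72 without OPM2 empty vector 1 and 3.61 with untreated cells as control, where the OPM2 effect itself was only -0.25. ARAP1, a GTPase-activating protein for ARF proteins, gave 1.77 ± 0.17 (SE; adjusted p = 1.2e-05), from 1.13 ± 0.12 in MM1S and -0.64 ± 0.12 in OPM2. C11orf96, whose role is not well described, stood at 1.82 and 2.04 CPM in empty vector cells and 56.1 and 53.3 CPM after knockout in MM1S and at 1.76 and 1.05 CPM in empty vector cells and 0.0651 and 0.177 CPM after knockout in OPM2. Its difference was 4.29 with untreated OPM2 cells, which held 0.138 and 0 CPM, against 8.19 ± 0.61 (SE; adjusted p = 1.7e-06) with empty vector cells. BCL7A, a subunit of SWI/SNF chromatin remodellers, gave 5.52 ± 0.92 (SE; adjusted p = 0.0012) at levels of at most 3.67 CPM.

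In the other direction, several cytoskeletal genes fell in MM1S and rose in OPM2. AHNAK, a giant scaffold protein under the plasma membrane, stood at 157 and 163 CPM in empty vector cells and 4.96 and 4.63 CPM after knockout in MM1S and at 366 and 887 CPM in empty vector cells and 2198 and 1794 CPM after knockout in OPM2. Its difference was -6.72 ± 0.48 (SE; adjusted p = 1.2e-06). With untreated OPM2 cells, at 1433 and 1527 CPM, the OPM2 effect was 0.43 in place of 1.67, and the difference was -5.48 and still called. TMSB4X, which encodes thymosin beta 4, a sequestering protein for actin monomers, stood at 1037 and 1027 CPM in empty vector cells and 290 and 293 CPM after knockout in MM1S and at 223 and 149 CPM in empty vector cells and 344 and 459 CPM after knockout in OPM2. Its difference was -2.94 ± 0.23 (SE; adjusted p = 2.5e-06), and -2.85 with untreated cells as control.

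CD33, a sialic acid-binding receptor used as a myeloid marker, stood at 13.2 and 13.2 CPM in empty vector cells and 0.475 and 0.166 CPM after knockout in MM1S and at 3.90 and 3.47 CPM in empty vector cells and 20.2 and 8.42 CPM after knockout in OPM2. It fell by 5.27 on the log2 scale in MM1S and rose in OPM2, with a difference of -7.23 ± 0.63 (SE; adjusted p = 7e-06). CD68, another gene of the myeloid list, rose in both lines. It stood at 34.3 and 34.3 CPM in empty vector cells and 80.1 and 72.7 CPM after knockout in MM1S and at 2.65 and 1.55 CPM in empty vector cells and 13.2 and 31.3 CPM after knockout in OPM2, with a difference of -2.31 ± 0.47 (SE; adjusted p = 0.0042) that was not called without OPM2 empty vector 2 (adjusted p = 0.0527). Whether other cells contributed to these 2 genes was not tested. FLNA, a crosslinker of actin filaments, went from 1138 and 1131 CPM to 550 and 729 CPM in MM1S and from 542 and 602 CPM to 1069 and 1370 CPM in OPM2, a difference of -1.92 ± 0.25 (SE; adjusted p = 0.00021). IGF2BP3, an RNA-binding protein of the IGF2BP family, gave -4.59 ± 0.33 (SE; adjusted p = 1.2e-06), and MTMR11, a myotubularin-related protein, -5.15 ± 0.35 (SE; adjusted p = 1.1e-06). LHX8, a LIM homeobox factor, gave -4.46 ± 0.35 (SE; adjusted p = 2.6e-06).

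**Figure D2:**
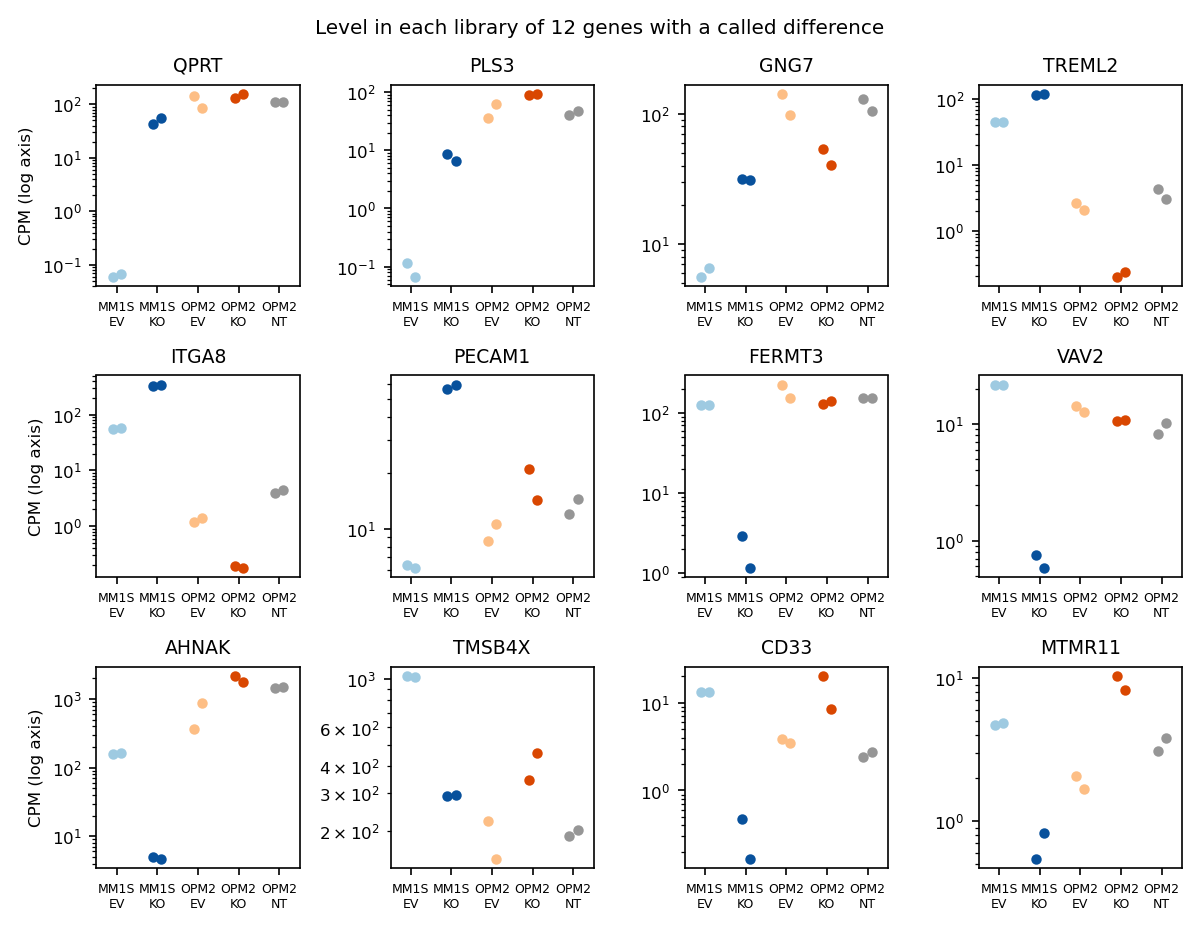
Each panel gives 1 gene, with the CPM in every library on a log axis; the groups are MM1S empty vector (EV) and IKZF1 knockout (KO), OPM2 empty vector and knockout, and untreated OPM2 cells (NT), 2 libraries each. The first 6 panels are genes that rose in MM1S and the last 6, from FERMT3 on, genes that fell there. FERMT3 stands at 1.16 and 2.92 CPM in the MM1S knockout libraries and above 120 CPM in the other libraries shown.

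Among the largest shifts in MM1S were switches between near silence and expression. QPRT, an enzyme of NAD synthesis from quinolinate, had 2 counts over both MM1S empty vector libraries and 1292 counts over both knockout libraries, a ratio of 776 with a 95% counting interval of 214 to 6410. In OPM2 it stood at 144 and 85.1 CPM in empty vector cells and 132 and 158 CPM after knockout, and the difference was called (adjusted p = 2.5e-07). PLS3, which encodes the actin bundler plastin 3, had 3 and 208 counts in MM1S, a ratio of 83.3 with an interval of 28.1 to 407, and rose in OPM2 by 0.90 ± 0.21 on the log2 scale. SLC17A9, a vesicular nucleotide transporter, had 1 and 254 counts in MM1S and 3 and 0 in OPM2. BMPR1B, a type I receptor for bone morphogenetic proteins, had 0 and 104 counts in MM1S, at least 41.6-fold higher after knockout against a floor of 3 counts over the group. WNT5A, a Wnt ligand of the non-canonical pathway, stood at 0.881 and 0.264 CPM in empty vector cells and 38.1 and 29.9 CPM after knockout in MM1S and at 0.0651 to 0.228 CPM in OPM2, and its difference was not called without OPM2 empty vector 2 (adjusted p = 0.0655). Such intervals and floors cover counting error only.

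Losses of the same kind in MM1S were as sharp. FERMT3, which encodes kindlin 3, the integrin activator of blood cells, stood at 127 and 126 CPM in empty vector cells and 2.92 and 1.16 CPM after knockout in MM1S and at 225 and 155 CPM in empty vector cells and 131 and 142 CPM after knockout in OPM2. Its difference was -5.42 ± 0.32 (SE; adjusted p = 4e-07). SYNJ2, an inositol phosphatase of endocytosis, stood at 27.2 and 23.7 CPM in empty vector cells and 0.0679 and 0.331 CPM after knockout in MM1S and at 19.4 and 37.7 CPM in empty vector cells and 40.6 and 38.8 CPM after knockout in OPM2, with a difference of -7.49 ± 0.58 (SE; adjusted p = 2.5e-06). GPAT2, a glycerol phosphate acyltransferase, had 604 counts in MM1S empty vector cells and 0 after knockout, at least 168-fold lower. PNPLA4, a phospholipase family member, had 247 and 1 counts, 206-fold lower with an interval of 36.6 to 8160. FAM230C, of a multigene family whose reads can be split among copies, had 59 and 0 counts, at least 16.4-fold lower in MM1S. CACNA1A, a calcium channel subunit, had 163 and 1 counts in MM1S, and in OPM2 0 and 15 counts, at least 5.49-fold higher. Both knockout libraries of MM1S lay below both controls for each of these genes, which was a condition of selection for all but FERMT3.

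A few of the widest differences rested on OPM2 libraries near 0 or on single libraries. AJUBA, a LIM scaffold protein, had 0 counts in OPM2 empty vector and 45 after knockout, at least 16.5-fold higher, but its difference was not called without MM1S empty vector 1 (adjusted p = 0.0798). HDHD3 had 26 counts in OPM2 empty vector and 0 after knockout, at least 7.90-fold lower, while untreated OPM2 cells were also at 0 counts, and its difference was not called with them as control. ZP3 had 8 and 0 counts, at least 2.43-fold lower in OPM2, and lost its call without OPM2 knockout a (adjusted p = 0.0534) or b (0.0583) by edgeR. MYO1F, a class I myosin of blood cells, went from 38.6 and 39.4 CPM to 0.679 and 0.579 CPM in MM1S, while OPM2 had 0 and 2 counts. The difference of MYO1F was not called without OPM2 knockout a (adjusted p = 1). ADGRE1, an adhesion G protein-coupled receptor, went from 15.7 and 13.7 CPM to 3.19 and 1.66 CPM in MM1S against 0 and 5 counts in OPM2, and its difference was likewise not called without OPM2 knockout a (adjusted p = 0.144). RNF130 and FAM131C were called in the difference with 0 to 4 counts over a group of MM1S, and each lost the call when a single library was left out: RNF130 had adjusted p = 0.0599 without MM1S empty vector 1, 0.109 without 2, 1 without MM1S knockout b and 0.0968 and 0.0983 without OPM2 knockout a and b. FAM131C had 0.11, 0.107, 1 and 0.0705 without MM1S empty vector 1 and 2, MM1S knockout a and OPM2 knockout a.

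Ikaros binds DNA through a core motif written TGGGAA, and the 250 bases before the start of a transcript were searched for it on both strands (TGGGAA or TTCCCA), in RefSeq windows of GRCh38.p14. The windows of 3 genes are shown because they span the pattern: CD38 rose in both lines, QPRT rose in MM1S, and FERMT3 fell in MM1S. The motif is in capitals, and each sequence reads 5′ to 3′ on the strand of its gene.
CD38 (chr4:15778078-15778327, plus strand): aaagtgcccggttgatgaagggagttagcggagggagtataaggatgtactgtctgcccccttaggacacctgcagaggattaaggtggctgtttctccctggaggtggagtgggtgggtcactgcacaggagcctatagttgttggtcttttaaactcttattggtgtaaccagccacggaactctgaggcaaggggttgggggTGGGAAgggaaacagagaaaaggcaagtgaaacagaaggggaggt
QPRT (chr16:29678930-29679179, plus strand): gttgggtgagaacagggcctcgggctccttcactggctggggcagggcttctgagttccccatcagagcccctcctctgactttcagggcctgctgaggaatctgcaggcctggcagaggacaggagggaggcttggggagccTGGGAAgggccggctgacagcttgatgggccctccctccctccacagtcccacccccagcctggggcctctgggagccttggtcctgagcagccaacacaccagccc
FERMT3 (chr11:64206471-64206720, plus strand): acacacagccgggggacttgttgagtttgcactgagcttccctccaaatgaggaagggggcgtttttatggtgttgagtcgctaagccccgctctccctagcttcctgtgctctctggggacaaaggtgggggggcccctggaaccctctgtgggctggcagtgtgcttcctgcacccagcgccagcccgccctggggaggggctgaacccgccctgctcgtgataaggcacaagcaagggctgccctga
The windows of CD38 and QPRT each held the motif once, beginning 45 and 107 bases before the start, and that of FERMT3 held it 0 times. The start is that of the transcript used for the window. The annotated genes QPRT and FERMT3 begin earlier, at 29679008 and 64205920. Part of the QPRT window, with its motif, and the whole FERMT3 window thus lie inside the gene. Of 11376 tested genes with a window, 2199 (19.3%) held it. Among genes with a higher difference 280 of 1378 (20.3%) held it, and among genes with a lower difference 179 of 1014 (17.7%). Among genes with opposite directions the share was 19.4% where MM1S rose (26 of 134) and 16.1% where MM1S fell (19 of 118). These shares lie near that of all tested genes, and a match describes letters, not binding.

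Plasma cell genes leaned toward MM1S. Of 23 tested genes of the plasma cell program, 10 had a higher difference and 0 a lower one (43.5% called, against 20.8% of all genes), and the median difference was 0.42 against 0.055. In MM1S 10 of the 23 rose and 0 fell, while in OPM2 5 rose and 5 fell. The 10 were XBP1, JCHAIN, SDC1, TNFRSF17, MZB1, CD79B, SLAMF7, DERL3, FKBP11 and SSR4. The summed level of the list was 10840 and 10690 CPM in MM1S empty vector cells, 16500 and 16970 in MM1S knockout, 16770 and 17400 in OPM2 empty vector and 17750 and 16290 CPM in OPM2 knockout. Only in the MM1S pair did both knockout libraries lie clear of both controls. Without OPM2 empty vector 1 the count was again 10 higher and 0 lower, and with untreated cells 10 higher and 1 lower.

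MZB1, a chaperone of immunoglobulin assembly, stood at 368 and 343 CPM in empty vector cells and 755 and 718 CPM after knockout in MM1S and at 430 and 216 CPM in empty vector cells and 104 and 130 CPM after knockout in OPM2. It rose in MM1S and fell in OPM2, and the difference was 2.52 ± 0.31 (SE; adjusted p = 0.00013), or 1.63 with untreated cells as control. SDC1, the heparan sulfate proteoglycan CD138 that marks plasma cells, stood at 736 and 734 CPM in empty vector cells and 1715 and 1627 CPM after knockout in MM1S and at 1967 and 1548 CPM in empty vector cells and 1685 and 1489 CPM after knockout in OPM2. Its difference was 1.33 ± 0.17 (SE; adjusted p = 0.0002). CD79B, a signalling chain of the B cell receptor, stood at 4.05 and 4.22 CPM in empty vector cells and 36.9 and 34.02 CPM after knockout in MM1S and at 20.7 and 11 CPM in empty vector cells and 15.7 and 23.3 CPM after knockout in OPM2, a difference of 2.78 ± 0.43 (SE; adjusted p = 0.00071). Among 16 tested genes of the B cell program, 12.5% were called, under the 20.8% of all genes. SPIB, an ETS factor of B cells, gave -2.74 ± 0.60 (SE; adjusted p = 0.0069) and BLK, a B cell kinase, was called at 0 to 0.951 CPM. BLK lost that call, with adjusted p from 0.0508 to 0.131, when any library but OPM2 empty vector 2 or OPM2 knockout b was left out. These were the 1 higher and the 1 lower call of the list, which had 0 higher and 2 lower without OPM2 empty vector 1 and 2 of each with untreated cells.

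Surface proteins that antibodies or engineered cells address in myeloma also differed. Of 21 tested, 7 had a higher difference and 1 a lower one (38.1% called), and with untreated cells 10 were higher and 2 lower. SLAMF7, the receptor bound by elotuzumab, stood at 361 and 362 CPM in empty vector cells and 657 and 683 CPM after knockout in MM1S and at 523 and 524 CPM in empty vector cells and 365 and 186 CPM after knockout in OPM2. It rose in MM1S by 0.89 ± 0.21 and changed by -0.93 ± 0.21 in OPM2, a difference of 1.82 ± 0.30 (SE; adjusted p = 0.0011). The OPM2 knockout libraries lay apart from each other, but both were under both controls. CD59, an inhibitor of the complement membrane attack complex, stood at 511 and 486 CPM in empty vector cells and 1339 and 1226 CPM after knockout in MM1S and at 545 and 446 CPM in empty vector cells and 501 and 530 CPM after knockout in OPM2, with a difference of 1.30 ± 0.16 (SE; adjusted p = 0.00015). LY9, a SLAM family receptor, gave 1.54 ± 0.23 (SE; adjusted p = 0.00046), and NCAM1, the adhesion molecule CD56, 2.602 ± 0.36 (SE; adjusted p = 0.00032). CD55, a further complement inhibitor of the list, chosen here after its values were seen, fell in both lines, from 19.5 and 19.2 CPM to 6.93 and 7.53 CPM in MM1S and from 35.4 and 36.97 CPM to 26.1 and 24.6 CPM in OPM2. Its difference was -0.90 ± 0.19 (SE; adjusted p = 0.0058). CD46, a complement inhibitor chosen likewise, rose in MM1S by 0.65 ± 0.20, with 0.43 ± 0.20 in OPM2. The difference of CD46 was 0.22 ± 0.28 (SE; adjusted p = 0.62), and it was called higher without OPM2 empty vector 1 and with untreated cells.

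**Figure D3:**
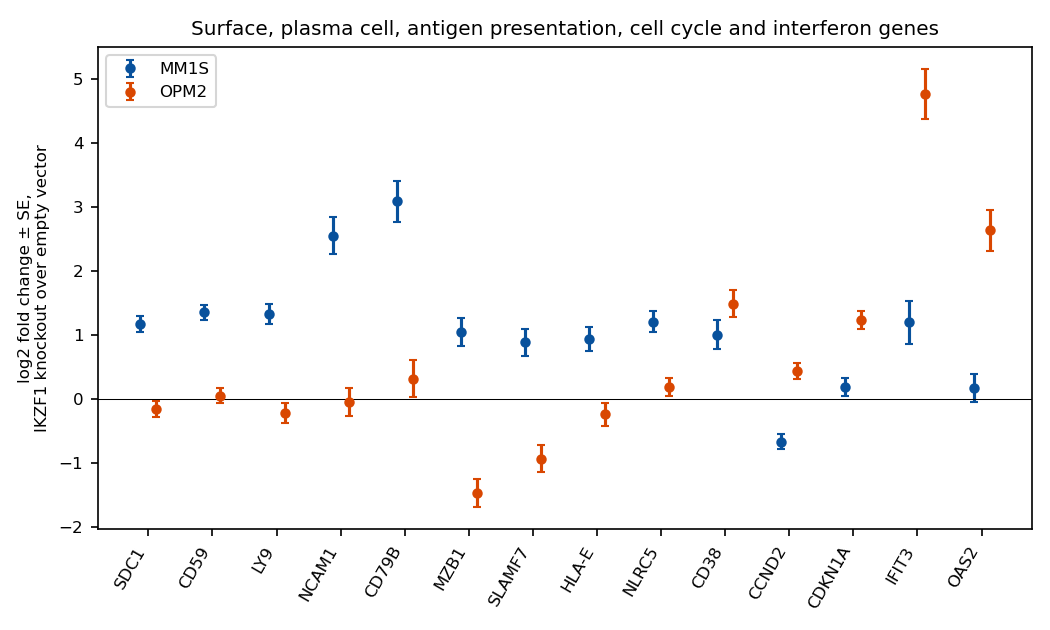
Points are log2 fold changes of knockout over empty vector in MM1S and OPM2 for each gene named on the x axis, and bars are ± SE of the fit with 2 libraries a group. MZB1 and SLAMF7 lie above 0 in MM1S and below 0 in OPM2, CCND2 lies on the reverse sides, and CD38 is above 0 in both lines.

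Genes of antigen presentation had higher differences where they were called. In the MHC class I list 10 of 22 were higher and 0 lower (45.5%), with a median of 0.67. Among them was CALR, which fell in OPM2 and was not called in MM1S. The differences of CALR, HLA-B, HLA-C and HLA-F were called neither without OPM2 empty vector 1 nor with untreated cells. Those of the peptide-loading and folding genes TAPBPL and PDIA3 were called without OPM2 empty vector 1 but not with untreated cells. The count was 6 without OPM2 empty vector 1 and 5 with untreated cells, all higher. NLRC5, the transactivator of class I genes, gave 1.02 ± 0.21 (SE; adjusted p = 0.0052), from 1.21 ± 0.16 in MM1S and 0.20 ± 0.14 in OPM2. Reads of HLA genes can be split among near-identical copies, so single members are uncertain. In the class II list 5 of 17 were higher and 0 lower (29.4%, against 20.8% of all genes), 3 without OPM2 empty vector 1 (HLA-DOB, RFX5 and RFXANK) and 5 with untreated cells, among them HLA-DOB at 2.67 ± 0.50 (SE; adjusted p = 0.0026). HLA-DRA stood at 299 and 290 CPM in empty vector cells and 632 and 562 CPM after knockout in MM1S and at 2.43 and 2.15 CPM in empty vector cells and 1.11 and 0.294 CPM after knockout in OPM2. Its difference of 2.74 ± 0.76 (SE; adjusted p = 0.022) was not called, with adjusted p from 0.054 to 0.148, when MM1S empty vector 1 or 2, MM1S knockout a, OPM2 empty vector 1 or 2 or OPM2 knockout b was left out.

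Adhesion and cytoskeleton genes split by list. Of 30 tested integrins and adhesion molecules, 10 had a higher difference and 0 a lower one, and 3 were lower without OPM2 empty vector 1 (10 higher). That is 33.3% called with all libraries, against 20.8% of all genes, and with untreated cells 8 were higher and 1 lower. PECAM1, the homophilic adhesion molecule CD31, stood at 6.34 and 6.13 CPM in empty vector cells and 56.3 and 59.6 CPM after knockout in MM1S and at 8.60 and 10.5 CPM in empty vector cells and 20.9 and 14.3 CPM after knockout in OPM2. It rose in both lines, with a difference of 2.35 ± 0.26 (SE; adjusted p = 5.7e-05). ICAM2, a ligand of leukocyte integrins, fell in OPM2 by 2.07 on the log2 scale from 26.1 and 15.2 CPM to 3.32 and 6.36 CPM, with -0.17 ± 0.27 in MM1S and a difference of 1.90 ± 0.40 (SE; adjusted p = 0.0056). Of 30 tested genes of the leukocyte actin cytoskeleton, 3 had a higher difference and 10 a lower one (43.3% called). In this list 12 fell and 2 rose in MM1S, and 7 fell and 5 rose in OPM2. Without OPM2 empty vector 1 the split was again 3 and 10, and with untreated cells 4 and 9. VAV2, a guanine nucleotide exchange factor, stood at 21.6 and 21.7 CPM in empty vector cells and 0.747 and 0.579 CPM after knockout in MM1S and at 14.2 and 12.6 CPM in empty vector cells and 10.6 and 10.8 CPM after knockout in OPM2, a difference of -4.67 ± 0.32 (SE; adjusted p = 1.1e-06). VIM, the intermediate filament vimentin, stood at 478 and 491 CPM in empty vector cells and 54.1 and 80.5 CPM after knockout in MM1S and at 2721 and 2194 CPM in empty vector cells and 2417 and 2499 CPM after knockout in OPM2. Its difference was -2.85 ± 0.28 (SE; adjusted p = 1.7e-05).

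Interferon-stimulated genes that were called rose in both lines with 1 exception each, and a minority differed. In MM1S 28 of 59 rose and 1 fell, and in OPM2 24 rose and 1 fell. A difference was called for 13 (22%, near the 20.8% of all genes), 4 higher and 9 lower, with a median of -0.55. Without OPM2 empty vector 1 the median was -0.31. With untreated cells the split was 4 and 3 and the median 0.04, so the lean toward OPM2 depended on the empty vector libraries. IFIT3, a tetratricopeptide protein that binds viral RNA complexes, stood at 4.17 and 5.54 CPM in empty vector cells and 10.8 and 11.6 CPM after knockout in MM1S and at 0.882 and 1.19 CPM in empty vector cells and 28.5 and 29.9 CPM after knockout in OPM2. It rose in both lines, and its difference was -3.56 ± 0.53 (SE; adjusted p = 0.00057), or -3.03 with untreated cells. OAS2, a sensor of double-stranded RNA, stood at 35.4 and 36.3 CPM in empty vector cells and 41.9 and 39.3 CPM after knockout in MM1S and at 0.662 and 1.73 CPM in empty vector cells and 7.88 and 8.36 CPM after knockout in OPM2, a difference of -2.46 ± 0.39 (SE; adjusted p = 0.00086). The level of OAS2 after OPM2 knockout stayed below that of either MM1S group. BST2, the virion tether tetherin, gave 1.64 ± 0.32 (SE; adjusted p = 0.0033) and was not called with untreated cells (0.53, adjusted p = 0.30 by edgeR). IFIT5 gave -4.03 ± 0.55 (SE; adjusted p = 0.00026) and was not called with untreated cells either (-1.14, adjusted p = 0.087).

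Cell cycle genes differed at single members more than as lists. Of 40 tested S phase genes, 0 had a higher difference and 6 a lower one (15%, under the background): GINS1, ORC1, PCNA, RRM2, CCNE2 and E2F2. In MM1S 21 of the 40 fell and in OPM2 14 fell. With untreated cells the split of the differences was 1 higher and 7 lower. The median difference was -0.29 with all libraries and -0.31 without OPM2 empty vector 1. GINS1, a subunit of the replicative helicase complex, stood at 77.5 and 84.6 CPM in empty vector cells and 30.97 and 29.5 CPM after knockout in MM1S and at 74.6 and 90.4 CPM in empty vector cells and 85.8 and 98.05 CPM after knockout in OPM2, a difference of -1.58 ± 0.18 (SE; adjusted p = 5.2e-05). PCNA, the sliding clamp of DNA polymerase, gave -1.26 ± 0.18 (SE; adjusted p = 0.00035). Both GINS1 and PCNA lie on chromosome 20, and PCNA is inside a stretch described below. CCND2, a D-type cyclin, went from 891 and 921 CPM to 549 and 596 CPM in MM1S and from 859 and 800 CPM to 1117 and 1139 CPM in OPM2. Its difference was -1.11 ± 0.17 (SE; adjusted p = 0.00061). CDKN1A, the CDK inhibitor p21, rose in OPM2 by 1.24 ± 0.14, with 0.20 ± 0.14 in MM1S and a difference of -1.04 ± 0.20 (SE; adjusted p = 0.0031), which was not called with untreated cells (-0.58, adjusted p = 0.063 by edgeR). Of 36 mitosis genes, 0 were higher and 2 lower (5.56%), BUB1 and MKI67, and with untreated cells 0 were called by edgeR (BUB1 at -0.68, adjusted p = 0.079, and MKI67 at -0.25, adjusted p = 0.61). The call of MKI67 was also lost without MM1S knockout b (adjusted p = 0.0555). Of 19 genes of G1 control, 2 were higher and 4 lower (31.6%), and 2 and 3 with untreated cells. The median difference of that list was -0.34 with all libraries and -0.22 without OPM2 empty vector 1.

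Most amino acid stress genes fell in each line, and the called differences were lower in MM1S with 1 exception. These are targets of ATF4, the factor that raises amino acid synthesis and transport. In MM1S 30 of 38 fell and 1 rose, and in OPM2 26 fell and 0 rose. The summed level was 6649 and 6647 CPM in MM1S empty vector cells, 3808 and 3790 in MM1S knockout, 15970 and 13650 in OPM2 empty vector and 9595 and 8684 CPM in OPM2 knockout. A difference was called lower for 11 and higher for 1 (31.6%), with a median of -0.44. The split was 17 lower and 0 higher without OPM2 empty vector 1, and 7 lower and 2 higher with untreated cells. GPT2, a mitochondrial alanine transaminase, stood at 69.9 and 65.1 CPM in empty vector cells and 13.4 and 13.7 CPM after knockout in MM1S and at 156 and 148 CPM in empty vector cells and 83.9 and 95.5 CPM after knockout in OPM2. It fell in both lines, with a difference of -1.56 ± 0.20 (SE; adjusted p = 0.00014). GARS, a glycyl-tRNA synthetase, gave -0.91 ± 0.15 (SE; adjusted p = 0.001), and MTHFD1L, an enzyme of mitochondrial folate metabolism, -0.98 ± 0.16 (SE; adjusted p = 0.001).

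Of 32 tested genes of the unfolded protein response and protein folding in the endoplasmic reticulum, 9 had a higher difference and 1 a lower one (31.2%), and 6 and 1 with untreated cells. SYVN1, a ubiquitin ligase that removes misfolded proteins, gave 0.67 ± 0.14 (SE; adjusted p = 0.0055), and ERO1B, an oxidase of the endoplasmic reticulum, -1.43 ± 0.30 (SE; adjusted p = 0.0056). SPCS1, a signal peptidase subunit, gave 0.75 ± 0.15 (SE; adjusted p = 0.0039). HSPA5, the chaperone BiP, gave 0.80 ± 0.14 (SE; adjusted p = 0.0019) and was not called with untreated cells (0.41, adjusted p = 0.063 by edgeR). Among 47 genes of the MYC network and its targets, 8 were higher and 1 lower with empty vector cells (19.1%, near the 20.8% of all genes), and 3 higher and 11 lower with untreated cells. MYC itself stood at 284 and 302 CPM in empty vector cells and 314 and 318 CPM after knockout in MM1S and at 522 and 603 CPM in empty vector cells and 360 and 310 CPM after knockout in OPM2, a difference of 0.85 ± 0.21 (SE; adjusted p = 0.011) that was not called without MM1S empty vector 1 (adjusted p = 0.0633) or 2 (0.0509) or OPM2 knockout b (0.0522) by edgeR. MXD4, a MAX partner that opposes MYC, gave 1.30 ± 0.28 (SE; adjusted p = 0.0058).

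**Figure D4:**
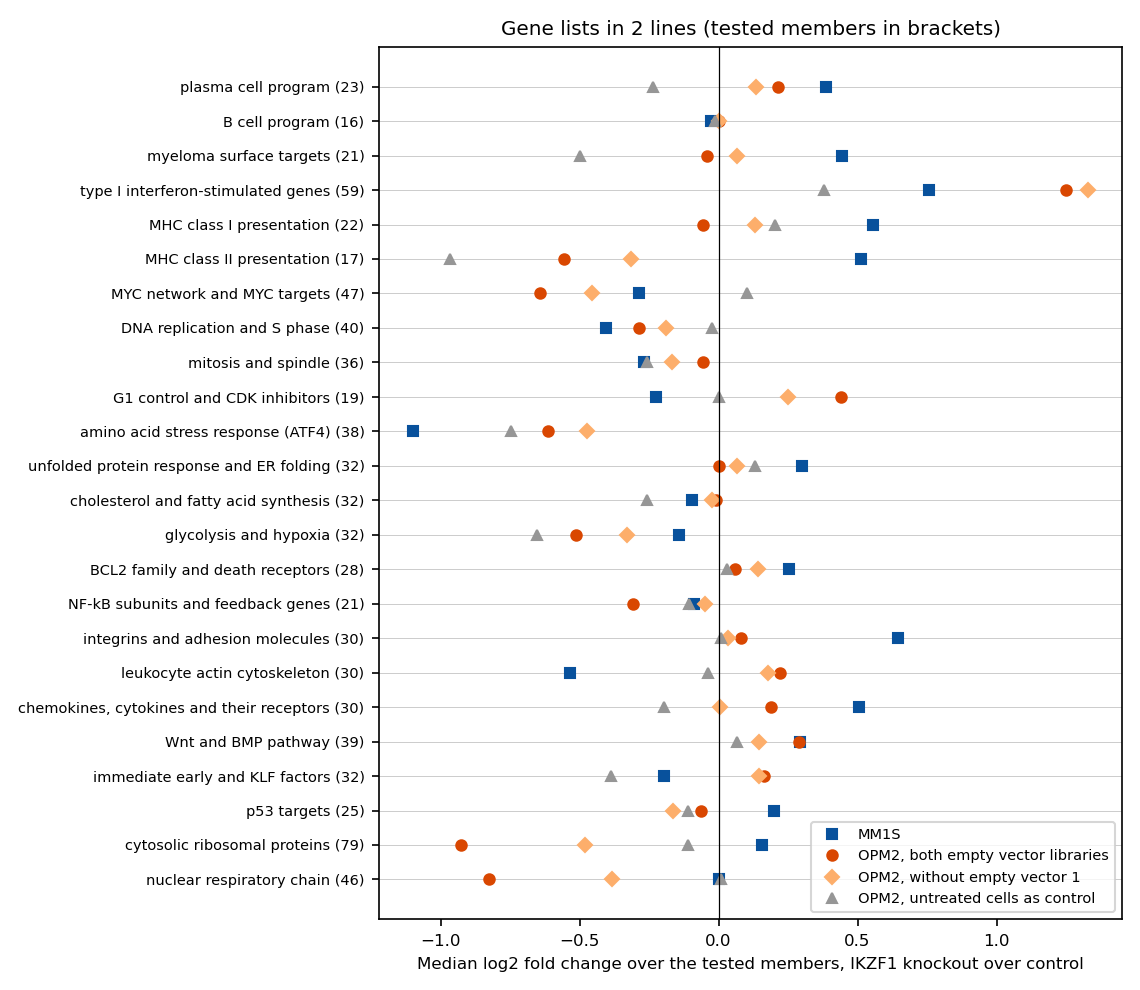
Each line of the plot is a gene list with its number of tested members, and the x axis is the median log2 fold change of IKZF1 knockout over control. Squares are MM1S, and the other 3 symbols are OPM2 with both empty vector libraries, without replicate 1, and with untreated cells. The ribosomal and respiratory lists move toward 0 in OPM2 across the 3 controls, from -0.93 to -0.11 and from -0.83 to 0.01.

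The largest list count depended on the OPM2 control. Of 79 tested cytosolic ribosomal protein genes, 69 had a higher difference and 0 a lower one (87.3%), with a median of 1.08. In OPM2 76 fell, while in MM1S 2 rose and 1 fell. The summed level was 33380 and 31040 CPM in MM1S empty vector cells, 35220 and 37260 in MM1S knockout, 96270 and 55650 in OPM2 empty vector and 37470 and 40400 CPM in OPM2 knockout. Untreated OPM2 cells held 46190 and 40720 CPM, close to the knockout libraries and below both empty vector libraries, of which replicate 1 was highest. Without replicate 1, 62 were higher, with a median of 0.62, and with untreated cells 3 were higher and 0 lower, with a median of 0.24. The nuclear respiratory chain list gave 26 of 46 higher and 0 lower, 20 without replicate 1 and 3 with untreated cells. RPL35A, a protein of the large subunit, was called under all 3 controls, at 1.67 ± 0.23 (SE; adjusted p = 0.00027), and 0.73 with untreated cells. NDUFA10, a subunit of complex I, gave 1.61 ± 0.22 (SE; adjusted p = 0.00025), and SDHA, a subunit of complex II, 1.13 ± 0.19 (SE; adjusted p = 0.0012). With empty vector cells 56.5% of the respiratory list were called in the difference. With untreated cells 0 ribosomal and 0 respiratory genes of the 2 lists were called lower in OPM2. The part of the empty vector libraries in these counts was not tested further.

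Other lists gave fewer calls or mixed directions, and the share called in each stands beside 20.8% of all genes. Of 39 tested Wnt and BMP genes, 4 were higher and 8 lower (30.8% called, and 7 and 4 with untreated cells). Among them were the receptors FZD8 at -1.80 ± 0.24 (SE; adjusted p = 0.0002) and FZD5 at -1.42 ± 0.27 (SE; adjusted p = 0.0027). Of 30 chemokine, cytokine and receptor genes, 4 were higher and 2 lower (20% called, and 9 and 2 with untreated cells). IL21R, the receptor for interleukin 21, rose in MM1S and fell in OPM2, with 1.90 ± 0.26 (SE; adjusted p = 0.00029), and CCR10, a homing receptor of plasma cells, did the same, with 1.40 ± 0.25 (SE; adjusted p = 0.0022). IL13RA1, a receptor chain for interleukin 13, rose in OPM2 by 2.52 ± 0.31, with -0.26 ± 0.30 in MM1S and a difference of -2.78 ± 0.43 (SE; adjusted p = 0.00068). Of 32 immediate early and KLF factors, 2 were higher and 5 lower (21.9% called), and with untreated cells 6 higher and 2 lower. KLF4, a zinc finger factor that restrains proliferation in many cells, stood at 2.06 and 1.85 CPM in empty vector cells and 1.02 and 1.24 CPM after knockout in MM1S and at 3.16 and 3.38 CPM in empty vector cells and 13.02 and 19.1 CPM after knockout in OPM2, a difference of -3.09 ± 0.60 (SE; adjusted p = 0.0034). Of 32 cholesterol and fatty acid genes, 3 were higher and 3 lower (18.8% called, and 3 and 2 with untreated cells). FADS1, a fatty acid desaturase, was at -1.40 ± 0.21 (SE; adjusted p = 0.00054). Of 32 glycolysis and hypoxia genes, 5 were higher and 1 lower (18.8% called, and 9 and 1 with untreated cells). PDK1, a kinase that inhibits pyruvate dehydrogenase, was at 1.57 ± 0.32 (SE; adjusted p = 0.0046) and PFKM, a phosphofructokinase, at 1.06 ± 0.16 (SE; adjusted p = 0.00053).

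Of 28 tested genes of the BCL2 family and death receptors, 2 were higher and 2 lower (14.3% called, under the 20.8% of all genes). With untreated cells the split was 4 and 0. BCL2L2, which encodes the survival protein BCL-W, had 2 and 51 counts in MM1S, a ratio of 30.6 with an interval of 8.05 to 260. Its difference was called (adjusted p = 0.00086 by edgeR). BCL2L11, the death-promoting protein BIM, gave -0.78 ± 0.20 (SE; adjusted p = 0.015) with empty vector cells and 0.43 with untreated cells, a turn of direction. Its call was lost without MM1S empty vector 2 (adjusted p = 0.0522), MM1S knockout b (0.0507) or OPM2 knockout b (0.0582) by edgeR. Of 25 p53 targets, 4 were higher and 5 lower, with 7 and 5 without OPM2 empty vector 1 and 8 and 3 with untreated cells, and BTG2, an antiproliferative p53 target, gave 0.80 ± 0.17 (SE; adjusted p = 0.0052). Of 21 genes of the NF-kB list, 2 were higher and 0 lower (2 and 2 without OPM2 empty vector 1), with TNIP1, an inhibitor of NF-kB signalling, at 0.93 ± 0.19 (SE; adjusted p = 0.0052). With all libraries 36% of the p53 list and 9.52% of the NF-kB list were called. Of 12 tested genes of the translocations and line identity, 1 was higher and 3 lower (33.3% called, and 3 and 2 with untreated cells). Of the marker lists of other cells, 2 of 8 tested myeloid genes were higher and 2 lower (0 and 2 with untreated cells), 0 of 8 T and NK cell genes were called (1 higher with untreated cells), and of 4 stromal, epithelial and erythroid genes 1 was higher, the beta globin gene HBB, at 2.54 ± 0.50 (SE; adjusted p = 0.0037). The 10 genes of the Ikaros family and the cereblon ligase had 0 calls in either direction by edgeR, with all libraries, without OPM2 empty vector 1 and with untreated cells, and 3 of the 10 had an unadjusted p under 0.05 with all libraries.

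In MM1S, genes of 3 chromosome stretches moved together, a pattern chosen after the values were seen. In the first 11 Mb of chromosome 20, 51 of 60 genes fell and 1 rose, with a median log2 change of -1.04 over genes, -0.94 in knockout a and -0.98 in knockout b. In the last part of chromosome 2, with gene starts from position 230034982 on, 45 of 61 genes rose and 1 fell, with a median of 0.92 (0.80 in knockout a and 0.90 in b). On chromosome 8, with gene starts from 115408496 to 134477788, 30 of 47 genes fell and 3 rose, with a median of -0.73. The OPM2 medians in the same stretches were -0.22, -0.14 and 0.21, and those of H929, the third line of the series, -0.03, -0.04 and 0.07. On the rest of these chromosomes, the MM1S medians were 0.00, 0.01 and -0.05. These positions are in GRCh38.p14. The 3 stretches were not the only shifts. Of 226 windows of 10 Mb with at least 20 genes, 10 had a median beyond 0.3 in size in MM1S. In OPM2 51 did (3 without empty vector 1 and 0 with untreated cells), and in H929 4. Outside the stretches, MM1S had 0.446 and 0.356 at 170 to 180 and 180 to 190 Mb of chromosome 3. The 4 windows of H929 were the first 40 Mb of chromosome 2, at -0.475 to -0.546.

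Of 197 tested genes in the stretches, 97 (49.2%) were called in the difference, against 20.4% of the others. They made up 3.22% of the 3015 calls, and 2918 calls lay outside. At the end of the chromosome 20 stretch, JAG1, a Notch ligand, fell in MM1S, from 36.2 and 30.5 CPM to 15.4 and 13.6 CPM, while BTBD3, beyond it, rose, from 53.8 and 56.5 CPM to 113 and 106 CPM. SLX4IP, just before JAG1, fell from 12.04 and 9.70 CPM to 0.679 and 0.579 CPM. ITM2C, a membrane protein in the chromosome 2 stretch, rose from 1001 and 914 CPM to 3769 and 3918 CPM in MM1S, against 2219 and 1482 CPM in empty vector cells and 1715 and 2020 CPM after knockout in OPM2. These 4 genes were chosen after their values were seen. TRPS1, a GATA-type repressor at the start of the chromosome 8 stretch, had 105 and 1 counts in MM1S, 87.4-fold lower with an interval of 15.4 to 3490, and rose in OPM2. Among genes named above, PCNA lies in the chromosome 20 stretch, NDUFA10 in that of chromosome 2 and MYC in that of chromosome 8. DNA was not analysed here, and whether the DNA of these stretches differs between the MM1S libraries was not tested.

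**Figure D5:**
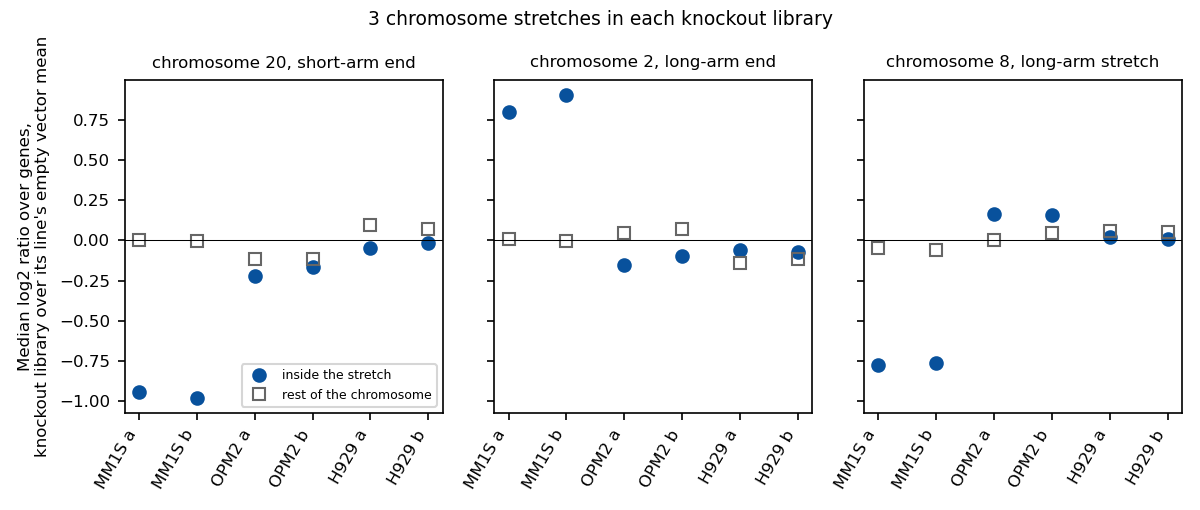
Points are the median log2 ratio over genes of each knockout library to the mean of its line's empty vector libraries, inside each stretch (filled circles) and on the rest of the chromosome (open squares). Both MM1S libraries lie away from 0 inside the stretches, at -0.94 and -0.98, 0.80 and 0.90, and -0.77 and -0.76, and the OPM2 and H929 libraries lie within 0.25 of 0.

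Neighbouring genes on chromosome 9 moved in different directions in MM1S. CDKN2A and CDKN2B encode the CDK inhibitors p16 and p15, and MTAP, their neighbour, encodes an enzyme of methionine salvage. CDKN2B stood at 0.235 and 0.0660 CPM in empty vector cells and 3.67 and 5.55 CPM after knockout in MM1S and at 9.78 and 11.8 CPM in empty vector cells and 19.7 and 19.6 CPM after knockout in OPM2, and its difference was 3.96 ± 0.54 (SE; adjusted p = 0.00026). CDKN2A stood at 0.117 and 0.132 CPM in empty vector cells and 1.83 and 2.15 CPM after knockout in MM1S, against 241 to 451 CPM in the OPM2 libraries, and its difference was 4.27 ± 0.58 (SE; adjusted p = 0.00026). MTAP, chosen after its values were seen, went from 46.6 and 43.3 CPM to 9.98 and 10.3 CPM in MM1S and from 66.1 and 80.05 CPM to 73.7 and 76.4 CPM in OPM2, a difference of -2.18 ± 0.17 (SE; adjusted p = 2.5e-06). The flanking genes KLHL9 and DMRTA1 were not called in MM1S, at 0.33 and 0.57 on the log2 scale.

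Lenalidomide-treated OPM2 cells (10 µM for 72 h, 2 libraries, against the untreated libraries) share no library with the OPM2 knockout and empty vector groups. Lenalidomide called 1506 of all genes tested (10.4%). Of the 1235 genes called in OPM2 alone, lenalidomide called 201, 200 of them in the direction of the OPM2 knockout and 1 in the other. Among the 313 genes with opposite directions in the lines it called 75, of which 72 moved as in the OPM2 knockout and 3 as in the MM1S knockout. Of the 1152 genes called in MM1S alone it called 144, 92 in the direction of MM1S and 52 in the other. TREML2, ITGA8 and SLAMF7 were among genes that fell after the OPM2 knockout, and lenalidomide gave them -1.41 (adjusted p = 0.0019), -4.79 (adjusted p = 0.00011) and -1.99 (adjusted p = 3.3e-05) on the log2 scale.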

How the data were processed

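Gene-level raw counts for 18 libraries and log2 FPKM values were deposited by the authors, and reads were processed with Subread and featureCounts on GRCh38 with limma also named, per the submitters' processing notes; versions were not stated there. Libraries came from TruSeq RNA preparations, per the labels' protocols. The log2 values, per the file headers, were used only to compare the sign of differences in the authors' deposited table. From the counts, edgeR 4.0.16 in R 4.3.3 (robust quasi-likelihood test, TMM scaling, filterByExpr) was fitted to all 18 libraries in 9 groups, with 9 residual degrees of freedom. The contrast was MM1S knockout minus empty vector, less the same in OPM2. A call is a Benjamini-Hochberg adjusted p below 0.05, and each SE is the log2 value divided by the root of its F statistic. CPM used the scaled library size.

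Totals were 11.8 to 24.19 M counts. Of 28395 genes, 385 had no symbol and held 0.0122 to 0.0276% of the counts. Ratios from few counts carry 95% exact intervals, and the floor is 3 counts over a group. An exact permutation test of 2 against 2 libraries cannot go below p = 0.333, so none is given.

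Named were CD38, IKZF1 and IKZF3, the 10 highest and 10 lowest called differences with average log2 CPM of at least 1, also called without OPM2 empty vector 1 and with groups that did not overlap, the 5 genes with smallest p in each direction among those called in opposite directions, and up to 4 called members of each of 29 gene lists. Pseudogene-like, LOC, LINC, antisense and immunoglobulin segment names were passed over. Members and lists were chosen with earlier results of these data known. On simulated data for this contrast, over 14289 genes, 45% of 100 differences of 1 and 91% of 100 differences of 2 on the log2 scale were called. Only these genes differed between groups of a line there, far fewer than were called in the data. The simulation also held no control library that stood apart, so its shares may not carry over. DESeq2 1.42.0, limma 3.58.1 (voom), other scalings and filters, a test against 1.5-fold, a fit of the 8 libraries and leaving out each library were the alternatives.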

Additional observations from a re-analysis of the deposited data

Results flagged for a closer look

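The effect of IKZF1 loss differed between MM1S and OPM2 by a test of the difference itself (edgeR) for 3015 genes. The genes below are those named in the report, or members of its lists, that were also called in opposite directions in the 2 lines. No explanation was tested for them. Values are differences of log2 effects, MM1S minus OPM2.

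Signalling and adhesion genes with a higher difference were GNG7 at 3.73, TREML2 at 4.76, ITGA8 at 5.35, EVL at 4.13, ARAP1 at 1.77, IL21R at 1.90 and CCR10 at 1.40. C11orf96 stood at 8.19 and BCL7A at 5.52. Secretory and immune genes were MZB1 at 2.52, SLAMF7 at 1.82, HLA-DOB at 2.67, BST2 at 1.64 and HSPA5 at 0.80. Metabolic genes were PFKM at 1.06 and FDXR, which encodes ferredoxin reductase, at 1.42. Ribosomal, nucleolar and respiratory chain genes were RPL35A at 1.67, RPL22 at 0.97, NCL at 0.89, NDUFA10 at 1.61, SDHA at 1.13, NDUFB3 at 1.35 and NDUFB5 at 0.87. With untreated OPM2 cells as control, the differences of BST2 (0.53), HSPA5 (0.41), FDXR (0.75), NCL (0.23) and NDUFB3 (0.41) were not called. With that control 0 cytosolic ribosomal and 0 respiratory chain genes were called lower in OPM2. RPL35A, RPL22, NDUFA10, SDHA, NDUFB3 and NDUFB5 were then not called in opposite directions. Calls within OPM2 under that control are not given for the remaining genes here, which should not be taken to keep opposite directions. The OPM2 effect of EVL, for 1, was weaker with it, as given above. Without OPM2 empty vector 1, 60 of 163 genes that rose in MM1S and fell in OPM2 kept both calls. For the reverse pattern the count was 97 of 150. FDXR also lost its call without MM1S empty vector 2 (adjusted p = 0.0511 by edgeR), and NCL and NDUFA10 lie in the chromosome 2 stretch.

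Genes with a lower difference were CD33 at -7.23, AHNAK at -6.72, MTMR11 at -5.15, IGF2BP3 at -4.59, LHX8 at -4.46, TMSB4X at -2.94, FLNA at -1.92, FZD5 at -1.42, FADS1 at -1.40 and CCND2 at -1.11. For 3 genes with few counts in a group, only the adjusted p of the difference by edgeR is given, which was 1.4e-05 for TRPS1, 0.00019 for CACNA1A and 0.015 for ZP3. The call of ZP3 was lost without OPM2 knockout a (0.0534) or b (0.0583) and with untreated cells.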

How the results depend on the processing

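The count of 3015 differences was 813 in a test against 1.5-fold, 709 in a fit of the 8 libraries alone, 1191 with all 3 choices of OPM2 control (added after seeing the data) and 1364 to 7000 when 1 library was left out. The MM1S count of 4106 was 1455, 2363 and 2314 to 6310 in the first, second and last of these, and the OPM2 count of 5276 was 645, 1502 and 3057 to 7967, and 1130 with untreated cells as control. Under DESeq2 size factors, upper quartile scaling, other filters, the DESeq2 Wald test and limma-voom the difference count lay between 2958 and 3789, and outside the 3 chromosome stretches (added after seeing the data) it was 2918. The share of higher calls was 56.8%, 53.6% with DESeq2 size factors and 47.5% with upper quartile scaling. Direction turned for IKZF1 without OPM2 empty vector 2 (-0.39, within a range up to 0.59 over libraries left out), and with untreated cells for IKZF3 (0.29), NDRG1 (0.54), BCL2L11 (0.43) and MAF (0.35). The cause was not tested. Of 120 named genes with a call, 78 kept it under every alternative apart from the 1.5-fold test and the 8-library fit, and 61 under those too. No paired analysis was possible because the knockout columns carry no replicate number of the titles. With 2 libraries a group, the spread rests on a fit shared by all groups, and a group left with 1 library is assumed to vary like the others.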
